A study of Mus musculus with 6 samples.

Results

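ADAM and ADAMTS metalloproteinases were examined in tumor endothelial cells (ECs) of wild-type (WT) and Apelin-knockout (Apelin-KO) mice. The genes were 7 ADAM genes (Adam8, Adam9, Adam10, Adam12, Adam15, Adam17 and Adam19) and 3 ADAMTS genes (Adamts1, Adamts4 and Adamts9), or 10 of the 24346 gene symbols measured. They were chosen as the family of Adam8, whose FPKM (a count of fragments scaled to transcript length and to sequencing depth) was higher in the WT samples of this experiment. The WT against Apelin-KO difference of the 10 genes is therefore given as a description, without a test. Mice of the C57BL/6 strain, aged 8 to 10 weeks and either WT or lacking Apelin, were inoculated under the skin with MC38 cells, a mouse colon carcinoma line, and tumors were taken at day 19. Tumor cells positive for CD31 and negative for CD45 were sorted as ECs, and 3 samples per genotype were sequenced. All 6 sample names also carry the word saline, while the methods of the study state no infusion for these samples and do not name a tissue restriction of the knockout. Whether a sample was 1 mouse or a pool is not given in the sources used here, so that the SDs below measure the spread between these samples. The standard errors are moderated ones from limma, a linear-model fit that draws the variance of each gene toward that of all genes tested. They can be smaller or larger than the spread of a gene's own samples gives.

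ADAM proteins are metalloproteinases anchored in the cell membrane. They carry a prodomain that is removed during maturation, a zinc-binding protease domain and a disintegrin domain, and they release the outer parts of other membrane proteins from the cell surface, a process called shedding. ADAMTS proteins are secreted relatives that carry thrombospondin type 1 repeats, bind to the extracellular matrix and cleave proteoglycans such as versican and aggrecan. In blood vessels, ADAM10 cleaves Notch receptors and VE-cadherin, ADAM17 releases TNF and its receptors, and ADAMTS1 is known as an inhibitor of angiogenesis.

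The 10 genes fell into 4 ranges of expression in tumor ECs, and in 9 of them WT and Apelin-KO samples overlapped. Adam15, Adam10, Adamts4 and Adamts1 had means of 195 ± 21.4, 191 ± 18.9, 179 ± 26.4 and 125 ± 31.8 FPKM (SD, n = 6, both genotypes). Adam17 and Adam9 had means of 43.4 and 37.7 FPKM, and Adam12, Adam19 and Adamts9 had means of 17.1, 14.7 and 10.1 FPKM. Adam8 was the lowest, at 1.66 ± 1.58 FPKM (SD, n = 6). FPKM are scaled to transcript length, which allows this order between genes. Adam15 exceeded Adam10 in 3 of 6 samples and Adam10 exceeded Adamts4 in 4 of 6, so that these neighbours could not be ordered. Adam17 exceeded Adam9 in 5 of 6 samples and Adam12 exceeded Adam19 in 5 of 6, with ranges that overlapped. Gaps without overlap separated Adamts1 from Adam17 (2.89 times by the means), Adam9 from Adam12 (2.2 times) and Adamts9 from Adam8 (6.04 times). Adam10 and Adam15 together made up between 41.6% and 54.5% of the summed FPKM of the 10 genes in each sample, and Adamts1 and Adamts4 together between 30.2% and 43.3%.

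**Figure D1:**
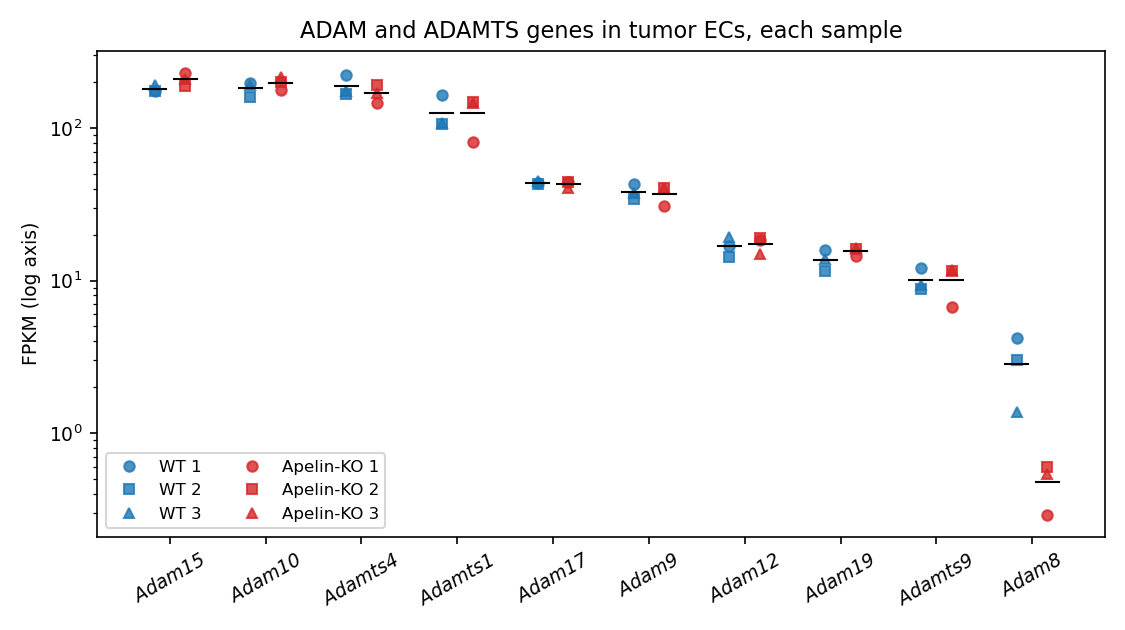
FPKM on a log axis for the 10 genes, ordered by their mean over 6 samples, with 1 marker per sample (blue, WT; red, Apelin-KO; marker shape, replicate number) and black bars at the group means. Adam8 is the gene whose WT and Apelin-KO samples do not overlap, at 1.38 FPKM or more in WT and 0.599 FPKM or less in Apelin-KO.

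The sequences in front of 4 of the genes are shown because these genes mark the range of behaviours found here. Adam8 had the widest spread over samples, Adam17 the narrowest, and Adamts1 and Adamts9 followed each other from sample to sample. Each is the 300 bases from 250 before to 50 after a transcription start in RefSeq on GRCm38.p6, written 5′ to 3′ on the strand of the gene. Such an entry was matched for 7 of the 10 genes (Adam8, Adam10, Adam15, Adam17, Adam19, Adamts1 and Adamts9). The last bases of the Adam8, Adam17 and Adamts1 entries were found in annotated transcripts of the gene, and those of Adamts9 in 0. Capitals mark every match to 1 of 5 motifs, searched on both strands. The GC box was searched for with the letters GGGCGG, the promoter element known as the TATA box with the letters TATAAA, the site of the AP-1 factors with the letters TGANTCA, the cyclic AMP response element with the letters TGACGTCA, and a PU.1-type ETS factor site with the letters GAGGAAG. The regions, all on the minus strand, are chr7:139992513-139992812 for Adam8, chr12:21373583-21373882 for Adam17, chr16:85803064-85803363 for Adamts1 and chr6:92943485-92943784 for Adamts9.
Adam8: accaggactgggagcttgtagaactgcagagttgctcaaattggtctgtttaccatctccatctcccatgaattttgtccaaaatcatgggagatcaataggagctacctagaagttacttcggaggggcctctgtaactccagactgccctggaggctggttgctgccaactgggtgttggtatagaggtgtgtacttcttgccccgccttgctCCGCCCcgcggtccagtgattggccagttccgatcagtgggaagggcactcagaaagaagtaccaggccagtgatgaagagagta
Adam17: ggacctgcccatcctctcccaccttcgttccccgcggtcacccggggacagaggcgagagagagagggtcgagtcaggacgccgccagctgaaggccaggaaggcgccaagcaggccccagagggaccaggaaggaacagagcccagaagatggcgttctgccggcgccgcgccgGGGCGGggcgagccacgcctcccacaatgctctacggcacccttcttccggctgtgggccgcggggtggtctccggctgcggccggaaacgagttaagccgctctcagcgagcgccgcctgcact
Adamts1: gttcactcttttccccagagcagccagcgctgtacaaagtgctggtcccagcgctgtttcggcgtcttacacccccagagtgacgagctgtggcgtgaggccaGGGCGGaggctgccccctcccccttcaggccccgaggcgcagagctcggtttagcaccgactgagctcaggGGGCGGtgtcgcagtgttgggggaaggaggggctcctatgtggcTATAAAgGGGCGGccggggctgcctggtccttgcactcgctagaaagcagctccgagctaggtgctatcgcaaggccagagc
Adamts9: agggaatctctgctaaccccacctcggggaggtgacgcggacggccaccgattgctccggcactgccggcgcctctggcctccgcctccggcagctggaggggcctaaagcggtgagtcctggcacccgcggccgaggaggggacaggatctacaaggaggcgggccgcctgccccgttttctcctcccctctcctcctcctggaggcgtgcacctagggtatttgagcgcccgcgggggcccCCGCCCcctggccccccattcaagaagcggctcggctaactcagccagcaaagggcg

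Each of these 4 sequences held a GC box. The 7 genes matched had 9 entries in all, since Adam19 had 3, and 7 of the 9 entries held one (2 of Adam19 did not), while 35.7% of all 32851 promoter entries of this length did. The GC box of Adam8 began at position -35, counted from the start site, and the GC box of Adam17 at -75. Adamts1 held 3 GC boxes and a TATA box that began at -32, just before the last of them at -25. A TATA box was found in 13.6% of all entries and, among the 7 genes, in Adamts1. AP-1 sites were found in 7.81% of all entries and, among the 7 genes, in an entry of Adam19. The PU.1-type ETS site was found in 13.6% of all entries and in Adam10 and Adam19, and the cyclic AMP response element in 1.79% of all entries and in 0 of the 7 genes. A match is a run of letters and not a measured binding site, and the absence of one says only that these letters are not in the window. GC made up 52.3% of the Adam8 sequence, 64.7% of the Adamts1 sequence and 70.0% of the Adam17 and Adamts9 sequences, against a median of 52.7% over all entries.

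Adam8, also known as CD156, is a sheddase found on leukocytes such as granulocytes and macrophages. It lies on chromosome 7 of GRCm38 from 139978932 to 139992562, and its longest annotated transcript has 3669 bases and 22 exons. Adam8 was 4.18, 3.0 and 1.38 FPKM in WT 1, 2 and 3, and 0.292, 0.599 and 0.542 FPKM in Apelin-KO 1, 2 and 3. The groups did not overlap, and WT 1 was the highest and Apelin-KO 1 the lowest. The means were 2.85 ± 1.40 FPKM for WT and 0.478 ± 0.163 FPKM for Apelin-KO (SD, n = 3 each), 5.97 times as high in WT by the means of FPKM. On the scale log2(FPKM + 1), which understates the change of low genes, the difference was 1.32 (standard error 0.27, from limma). With a pseudocount of 0.1 in place of 1 the log2 difference was 2.27. Without WT 1, the sample with the highest Adam8, the difference was 1.07 with the pseudocount of 1. The values rest on few reads. With depths of 8910000 to 10170000 reads per sample, an estimate taken from the spacing of low FPKM values, Adam8 stood for about 146, 92.8 and 43.5 reads in WT 1, 2 and 3, and for about 9.44, 21.1 and 17.6 reads in Apelin-KO 1, 2 and 3.

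Of the 10 genes, 1 (Adam8) did not overlap between WT and Apelin-KO samples, where 14.4% of the 10964 genes tested did not overlap (6.61% higher and 7.77% lower in WT). Since the genes were chosen on this difference, and Adam8 reached the mean of 1 FPKM required for testing through its WT samples, nothing is read from this count. Over all genes, limma with Benjamini-Hochberg adjustment gave an adjusted p-value under 0.05 for 0.00912% (Apln alone) and an unadjusted p-value under 0.05 for 9.42%. Apln, which encodes Apelin, was 457 ± 40.7 FPKM for WT and 17.3 ± 7.20 FPKM for Apelin-KO (SD, n = 3 each), in the direction of the genotype labels (log2 difference 4.73, standard error 0.29, adjusted p = 0.00747 from limma). Without WT 2, and without Apelin-KO 2, 0 genes had an adjusted p-value under 0.05, with 536 and 1164 genes at an unadjusted p-value under 0.05.

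Most genes of hematopoietic cells ran in the direction of Adam8. Of 20 hematopoietic marker genes, 17 reached the mean of 1 FPKM required for testing, and 16 of these 17 were higher in WT ECs. The median log2 difference was 1.18, against -0.01 over all genes tested. This median was 0.75 (without Apelin-KO 1) to 1.65 (without WT 3) when single samples were left out. The 1 gene lower in WT was S100a8, at 1.13 ± 0.507 FPKM in WT and 1.85 ± 1.18 FPKM in Apelin-KO ECs (SD, n = 3 each). The untested markers had low means in WT and Apelin-KO ECs. They were 0.169 and 0.165 FPKM for Cd3e, 0.233 and 0.225 FPKM for S100a9, and 0.185 and 0.0313 FPKM for Cd79a. At an unadjusted p-value under 0.05, 6 of the 17 genes had a higher WT level and 0 a lower one, where 5.17% and 4.25% of all genes did. This count was 1 without WT 1, 1 without WT 2, 0 without Apelin-KO 1 and 16 without WT 3, and without Apelin-KO 3 it was 3 higher and 1 lower. Ptprc, 1 of the 6, had a mean under 1 FPKM in Apelin-KO ECs and was tested through its WT level. None had an adjusted p-value under 0.05 (lowest 0.503, limma). The summed FPKM of the 20 genes ranged from 328 to 1140 in WT samples and from 154 to 404 in Apelin-KO samples. The defining markers were above 0 in every sample although CD45-positive cells had been gated out. Ptprc, which encodes CD45, was 3.08 ± 1.79 FPKM in WT and 0.826 ± 0.829 FPKM in Apelin-KO ECs (SD, n = 3 each). Adgre1, which encodes the macrophage marker F4/80, was 13.6 ± 9.24 and 4.46 ± 2.23 FPKM, Csf1r was 21.6 ± 12.5 and 8.27 ± 4.6 FPKM, and Itgam was 5.62 ± 3.78 and 1.34 ± 0.957 FPKM. The order of samples was not the same for Adam8 and the marker genes. For WT 1, 2 and 3 the mean log2(FPKM + 1) of the 20 genes came to 3.94, 4.40 and 3.02. For Apelin-KO 1, 2 and 3 it came to 2.32, 3.30 and 3.13. WT 3 thus lay below Apelin-KO 2 and 3 for this mean and above both for Adam8. For each of Ptprc, Csf1r, Adgre1 and Itgam, WT 3 lay below Apelin-KO 2 and above Apelin-KO 3. The part of hematopoietic cells in the Adam8 difference was not tested, and in these bulk samples fewer cells of a type and less RNA per cell cannot be told apart.

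Fibroblast genes ran in the same direction. All 7 fibroblast markers tested, of 12 listed, were higher in WT ECs, with a median log2 difference of 0.60, and 4 of them had an unadjusted p-value under 0.05 (Col1a1, Col3a1, Dcn and Pdgfra; limma, lowest adjusted p = 0.501), where 5.17% of all genes had one and were higher in WT. Of the untested markers, Fap ran the other way, at 0.078, 0.133 and 0.043 FPKM in WT 1, 2 and 3, and 0.468, 0.427 and 0.337 FPKM in Apelin-KO 1, 2 and 3, without overlap, and with no filter on low values 1 fibroblast marker (Fap) was lower and 2 were higher in WT at an unadjusted p-value under 0.05. The count of 4 was 1 without WT 1, 1 without WT 2, 1 without Apelin-KO 1 and 2 without Apelin-KO 2. The summed FPKM of the 12 genes ranged from 208 to 356 in WT samples and from 137 to 219 in Apelin-KO samples. Endothelial genes ran the other way. All 15 endothelial markers were lower in WT ECs, with a median log2 difference of -0.24, and 4 of them (Pecam1, Cdh5, Tie1 and Vwf) had an unadjusted p-value under 0.05, where 4.25% of all genes had one and were lower in WT. This count of 4 was 0 without WT 2, 0 without Apelin-KO 3, 1 without WT 1 and 8 without WT 3. Without WT 2 the median was -0.15 and 1 of the 15 endothelial markers was higher in WT. Pecam1, which encodes the sorted antigen CD31, was 604 ± 60.5 FPKM in WT and 760 ± 79.5 FPKM in Apelin-KO ECs (SD, n = 3 each), and the defining markers Cdh5 and Kdr were lowest in WT 2, at 155 and 299 FPKM. Of 11 pericyte markers, 8 were tested and 6 of these were lower in WT. Rgs5 was 3.44 ± 0.246 and 7.78 ± 0.923 FPKM, and Pdgfrb was 5.96 ± 1.39 and 7.42 ± 0.813 FPKM in WT and Apelin-KO ECs. The third defining marker, Cspg4, was higher in WT, at 2.50 ± 0.906 against 1.67 ± 0.177 FPKM. Higd1b was 2.12 ± 1.64 and 6.67 ± 1.92 FPKM and, with Rgs5, had an unadjusted p-value under 0.05 (limma, adjusted p = 0.501 and 0.214), or 2 of the 8 pericyte markers where 4.25% of all genes had one and were lower in WT. Without WT 3, 3 were lower and 1 was higher in WT. Of the epithelial markers, Krt8 and Krt18 had WT means of 0.0917 and 0.088 FPKM and were listed at 0 in the Apelin-KO samples. Epcam had means of 0.088 FPKM in WT and 0.0523 FPKM in Apelin-KO ECs. Krt20, the 1 epithelial marker tested of 9 listed, was between 6.41 and 20.6 FPKM, with means of 8.82 ± 2.27 FPKM in WT and 13.7 ± 6.22 FPKM in Apelin-KO ECs (log2 difference -0.52, standard error 0.31). With no filter on low values, the other 8 epithelial markers were higher in WT, and 1 of them (Cldn7, at 0.626, 0.7 and 0.295 FPKM in WT 1, 2 and 3, and 0.136, 0.248 and 0.269 FPKM in Apelin-KO 1, 2 and 3) had an unadjusted p-value under 0.05. These 8 markers had means under 1 FPKM and most were listed at 0 in some samples, so nothing is read from their direction. The part of these cell types in the values of the ADAM genes was not tested.

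**Figure D2:**
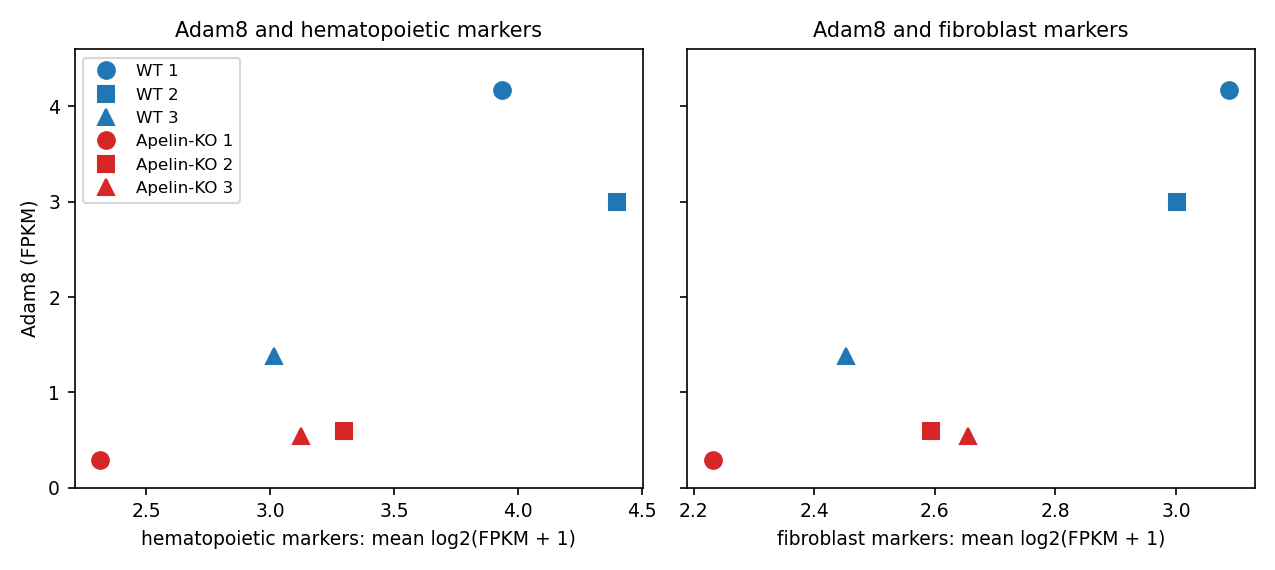
Adam8 in FPKM against the mean log2(FPKM + 1) of 20 hematopoietic markers (left) and 12 fibroblast markers (right), with 1 marker per sample. WT 1 and WT 2 are high on both axes, while WT 3 has 1.38 FPKM of Adam8 at mean marker levels below those of Apelin-KO 2 and 3.

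The genes with the profile most like that of Adam8, by Pearson correlation of log2(FPKM + 1) over the 6 samples, were Rab7b (r = 0.993), Creb1 (r = 0.985), Edil3 (r = 0.983), Pitpnm1 (r = 0.982) and Gpr183 (r = 0.982). They were picked as the highest of all genes tested over 6 samples of 2 genotypes, so that r is a description of likeness. Rab7b, a small GTPase of late endosomes, was 2.45, 2.29 and 1.17 FPKM in WT 1, 2 and 3, and 0.596, 0.794 and 0.772 FPKM in Apelin-KO 1, 2 and 3. Edil3, a secreted integrin ligand, was 6.58, 6.26 and 3.05 FPKM in WT 1, 2 and 3, and 1.45, 2.43 and 2.25 FPKM in Apelin-KO 1, 2 and 3. In both genes, as in Adam8, WT 3 lay between the other WT samples and the Apelin-KO samples. Of the other 9 ADAM and ADAMTS genes, Adamts4 was the most like Adam8 (r = 0.64) and Adam15 the least (r = -0.86).

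Adam10 and Adam17 are the main sheddases of the cell surface. Adam10 lies on chromosome 9 from 70678997 to 70780229 and was 196, 161 and 192 FPKM in WT 1, 2 and 3, and 179, 201 and 215 FPKM in Apelin-KO 1, 2 and 3. The groups overlapped, with WT 2 the lowest and Apelin-KO 3 the highest, and the log2 difference was -0.12 (standard error 0.13). Adam17, the TNF-converting enzyme, lies on chromosome 12 from 21323509 to 21373632. It was 43.5, 42.9 and 45.2 FPKM in WT 1, 2 and 3, and 44.1, 44.5 and 40.4 FPKM in Apelin-KO 1, 2 and 3. These 6 values were within 1.12 times of each other, and the coefficient of variation of 3.87% was lower than that of all but 1.44% of the genes tested, whose median was 13.8%. The log2 difference of Adam17 was 0.03 (standard error 0.09). Adam10 was 3.75 to 5.33 times as high as Adam17 in the 6 samples.

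Adam15, a disintegrin that binds integrins and is found on endothelium, lies on chromosome 3 from 89338542 to 89349996. It was 176, 174 and 193 FPKM in WT 1, 2 and 3, and 230, 189 and 209 FPKM in Apelin-KO 1, 2 and 3. WT 3 lay just above Apelin-KO 2, so that the groups overlapped, and the log2 difference of -0.21 (standard error 0.11) was the second largest in size among the 10 genes. Adam15 shares 20.6% of its exonic bases with an annotated gene on the other strand (4731419I09Rik), whose reads could be counted with it if strand was not used. Adam17, Adam19, Adamts4 and Adamts9 share between 2.82% and 9.18% of their exonic bases with such a gene, and Adam8 shares 0.992%. Adam9, which is found in many tissues, was 38.2 ± 4.35 FPKM in WT and 37.2 ± 5.48 FPKM in Apelin-KO ECs (SD, n = 3 each). Adam12 and Adam19 are the meltrins alpha and beta, known from muscle and heart development. Adam12 was 16.8 ± 2.50 FPKM in WT and 17.5 ± 2.30 FPKM in Apelin-KO ECs. Adam19 was 15.8, 11.6 and 13.7 FPKM in WT 1, 2 and 3, and 14.4, 16.1 and 16.4 FPKM in Apelin-KO 1, 2 and 3, with a log2 difference of -0.18 (standard error 0.13). In each of Adam9, Adam12 and Adam19 the groups overlapped. Adam9 lies on chromosome 8 from 24949611 to 25016927, Adam12 on chromosome 7 from 133883199 to 134232146, and Adam19 on chromosome 11 from 46055992 to 46147343.

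The 3 ADAMTS genes varied between samples of the same genotype more than they differed between genotypes. Adamts1, which cleaves versican and aggrecan, lies on chromosome 16 from 85793827 to 85803113. It was 164, 107 and 107 FPKM in WT 1, 2 and 3, and 81.0, 147 and 145 FPKM in Apelin-KO 1, 2 and 3. The highest value was 2.03 times the lowest, while the group means were 126 ± 33.2 and 125 ± 37.8 FPKM (SD, n = 3 each) and the log2 difference was 0.04 (standard error 0.28). Adamts9, a related protease that also cleaves versican, lies on chromosome 6 from 92772699 to 92943492. It was 12.1, 8.75 and 9.41 FPKM in WT 1, 2 and 3, and 6.72, 11.6 and 11.7 FPKM in Apelin-KO 1, 2 and 3. Adamts4, known as aggrecanase-1, lies on chromosome 1 from 171250421 to 171260637. It was 223, 167 and 174 FPKM in WT 1, 2 and 3, and 146, 191 and 169 FPKM in Apelin-KO 1, 2 and 3. In all 3 ADAMTS genes WT 1 was the highest sample and Apelin-KO 1 the lowest. Adam9 had the same highest and lowest samples, which made 4 of the 9 genes other than Adam8, where 4.03% of all genes tested had this pair of extremes. Adam8 had it too, but its high WT values were used in choosing the genes. The count was made after the values were seen, and nothing is read from it.

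Adamts1 and Adamts9, which lie on different chromosomes, kept nearly the same ratio in every sample. Adamts1 was between 11.4 and 13.6 times as high as Adamts9, although Adamts1 itself ranged from 81.0 to 164 FPKM. Over the 6 samples, Adamts9 was the fourth most similar of all genes tested to Adamts1 (Pearson r = 0.985 of log2(FPKM + 1)). The others of the 5 most similar genes were Fmr1 (r = 0.995), Rasl11b (r = 0.987), Snx9 (r = 0.986) and Tmem265 (r = 0.981). Adam9 had r = 0.962 and Adamts4 r = 0.859 with Adamts1, while Adam17 had r = -0.32. These 6 points share their libraries and were not tested. Without Apelin-KO 1, the log2 difference of Adamts1 was -0.24 in place of 0.04 and that of Adamts9 was -0.20 in place of 0.03, and without WT 1 they were -0.17 and -0.09, so that their sign rests on these samples.

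**Figure D3:**
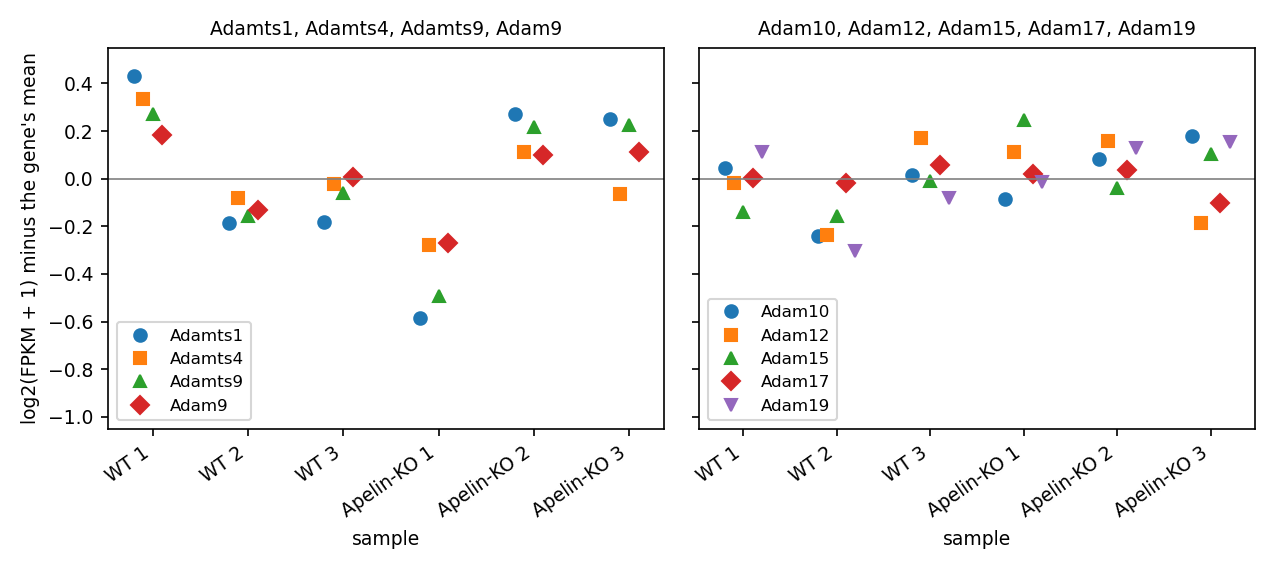
Log2(FPKM + 1) of each gene minus its own mean over the 6 samples, by sample. On the left, Adamts1, Adamts4, Adamts9 and Adam9 are all highest in WT 1 and lowest in Apelin-KO 1. On the right, Adam10, Adam12, Adam15, Adam17 and Adam19 do not share this order, and Adam17 stays closest to 0.

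Summed over the 7 ADAM genes, expression was 479 ± 33.8 FPKM in WT and 522 ± 13.7 FPKM in Apelin-KO ECs (SD, n = 3 each). Summed over the 3 ADAMTS genes, it was 324 ± 65.5 FPKM in WT and 303 ± 61.6 FPKM in Apelin-KO ECs. Adam8 contributed 0.352% ± 0.156 of the summed FPKM of the 10 genes in WT and 0.0571% ± 0.0161 in Apelin-KO ECs (SD, n = 3 each).

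The rest of the family was mostly low. Of 27 other ADAM genes, many of them known from testis, 12 had a value above 0 in a sample and 0 reached a mean of 1 FPKM. The highest was Adam5, with a mean of 0.156 FPKM, followed by Adam4 and Adam11. Of 16 other ADAMTS genes, 6 were tested, 2 higher and 4 lower in WT ECs, with a median log2 difference of -0.14. Adamts7 led, at 32.6 ± 2.72 FPKM in WT and 36.6 ± 4.85 FPKM in Apelin-KO ECs (SD, n = 3 each), followed by Adamts8 and Adamts10. By limma, 0 of the 6 had an adjusted p-value under 0.05 (lowest 0.513), and 1 had an unadjusted p-value under 0.05, where 9.42% of all genes did. This was Adamts14, which processes procollagen, at 3.32, 2.28 and 0.631 FPKM in WT 1, 2 and 3, and 0.277, 0.778 and 0.485 FPKM in Apelin-KO 1, 2 and 3. WT 3 lay among the Apelin-KO samples (log2 difference 0.93, standard error 0.34). Without WT 1, Adamts14 did not reach a mean of 1 FPKM and was not tested. Its unadjusted p-value was not under 0.05 without WT 2, Apelin-KO 1 or Apelin-KO 3. Adamts14 and, among shed proteins, Selplg had means under 1 FPKM in Apelin-KO ECs and were tested through their WT levels. Adamts12 was the 1 of the 6 genes tested whose groups did not overlap, where 14.4% of all genes tested did not, lower in WT at 1.79 ± 0.138 against 2.26 ± 0.366 FPKM, and it is named after its values were seen. Of 7 ADAMTS-like genes, which lack the protease domain, 3 were tested (Adamtsl1, Adamtsl2 and Adamtsl4) and all 3 were higher in WT. Adamtsl4 had an unadjusted p-value under 0.05, with a log2 difference of 0.74 (standard error 0.31, adjusted p = 0.525 from limma), which was lost without WT 1, WT 2, Apelin-KO 1 or Apelin-KO 2.

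**Figure D4:**
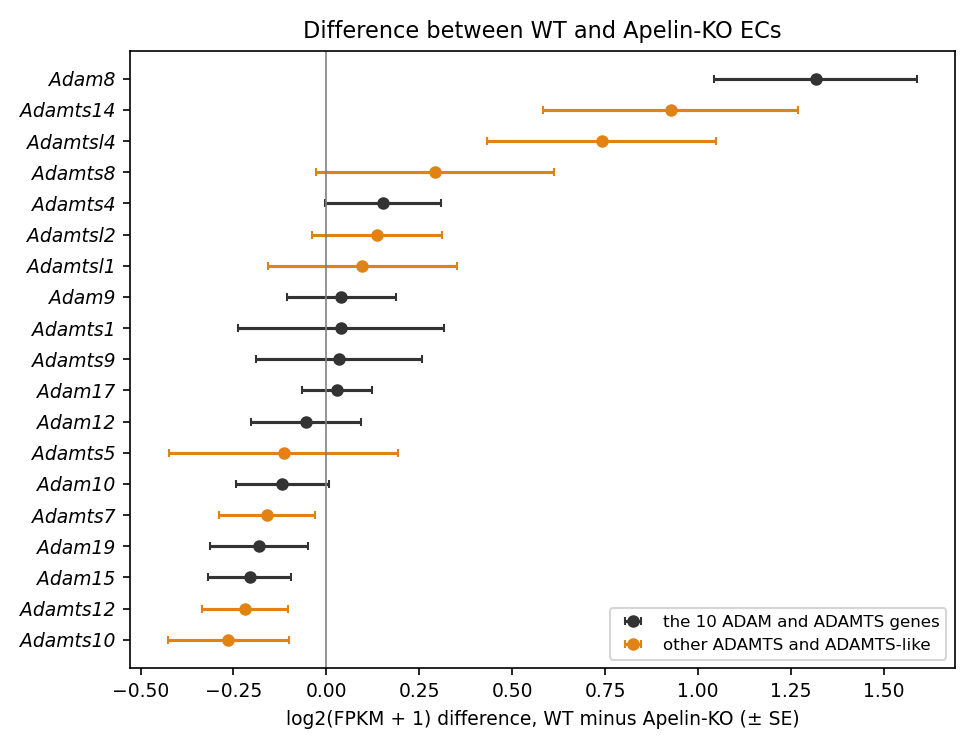
Differences of log2(FPKM + 1), WT minus Apelin-KO, with standard errors from limma (3 samples per group), for the 10 genes (black) and the 9 other ADAMTS and ADAMTS-like genes tested (orange). Adam8, at 1.32, lies to the right, and the other 9 of the 10 genes lie between -0.21 and 0.15.

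Partners and inhibitors set how much ADAM protease is active. Of 18 such genes, 15 were tested, 3 higher and 12 lower in WT ECs. The median log2 difference was -0.10 against -0.01 over all genes tested, and -0.19 without Apelin-KO 2. By limma 0 of the 15 had an adjusted p-value under 0.05 (lowest 0.515) and 1 had an unadjusted p-value under 0.05, where 9.42% of all genes did. That gene was Timp2, a metalloproteinase inhibitor, at 137, 123 and 78.5 FPKM in WT 1, 2 and 3, and 60.6, 66.9 and 88.8 FPKM in Apelin-KO 1, 2 and 3. WT 3 lay below Apelin-KO 3 (log2 difference 0.62, standard error 0.24), and the unadjusted p-value was not under 0.05 without WT 1, WT 2, Apelin-KO 1 or Apelin-KO 2. Timp3, which inhibits ADAM17 and the ADAMTS aggrecanases, was the highest of the list at 266 ± 28.0 FPKM in WT and 311 ± 107 FPKM in Apelin-KO ECs (SD, n = 3 each), and was 5.17 to 10.7 times as high as Adam17. Tspan14 and Tspan15, tetraspanins that carry ADAM10 to the cell surface, followed at 202 ± 21.3 and 100 ± 17.2 FPKM in WT and 212 ± 10.3 and 122 ± 23.2 FPKM in Apelin-KO ECs. Rhbdf1 and Rhbdf2 encode the iRhoms needed for maturation of ADAM17, and Rhbdf1 was 1.93 to 3.45 times as high as Rhbdf2. Rhbdf1, Furin and Pcsk6 were lower in every WT sample than in every Apelin-KO sample, or 3 of 15 genes where 7.77% of all genes were, and Rhbdf1, Furin and Pcsk6 are named after their values were seen. Furin, a protease that removes prodomains, was 55.2 ± 4.72 FPKM in WT and 65.0 ± 5.79 FPKM in Apelin-KO ECs.

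Genes of proteins that ADAM10, ADAM17 or ADAM8 can shed lay on both sides of 0. Of 32 genes listed, 25 were tested, 13 higher and 12 lower in WT ECs, with a median log2 difference of 0.01. By limma 0 of the 25 had an adjusted p-value under 0.05 (lowest 0.501), and 9 had an unadjusted p-value under 0.05, 6 higher and 3 lower in WT, where 5.17% and 4.25% of all genes did. This count was 4 without WT 1, 4 without WT 2 and 5 without Apelin-KO 3. The 6 higher in WT were Cd44, Cxcl16, Axl, Vcam1, Selplg and Notch2, with log2 differences from 0.83 to 1.15. Vcam1, an adhesion molecule for leukocytes, was 54.8, 85.9 and 45.6 FPKM in WT 1, 2 and 3, and 21.2, 36.5 and 36.2 FPKM in Apelin-KO 1, 2 and 3, without overlap. Cd44, a hyaluronan receptor, was 12.7, 18.4 and 6.68 FPKM in WT 1, 2 and 3, and 3.36, 5.88 and 5.20 FPKM in Apelin-KO 1, 2 and 3. Both were highest in WT 2 and lowest in Apelin-KO 1, as was the mean of the hematopoietic markers, whose part was not tested. The 3 lower in WT were Cdh5, Tie1 and Tgfa. Cdh5, which encodes VE-cadherin, was 180 ± 30.6 FPKM in WT and 248 ± 40.3 FPKM in Apelin-KO ECs (SD, n = 3 each). By quantitative PCR, the study reported Cdh5 and Vcam1 as not different between tumor ECs with and without Apelin. Tgfa, a ligand of the EGF receptor released by ADAM17, was 2.28 ± 0.141 and 3.08 ± 0.0658 FPKM. Cdh5, Kdr, Tek and Tie1 are also among the 15 endothelial markers. Kdr, Tie1 and F11r had the highest levels of the list, with means of 343, 334 and 333 FPKM over the 6 samples.

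**Figure D5:**
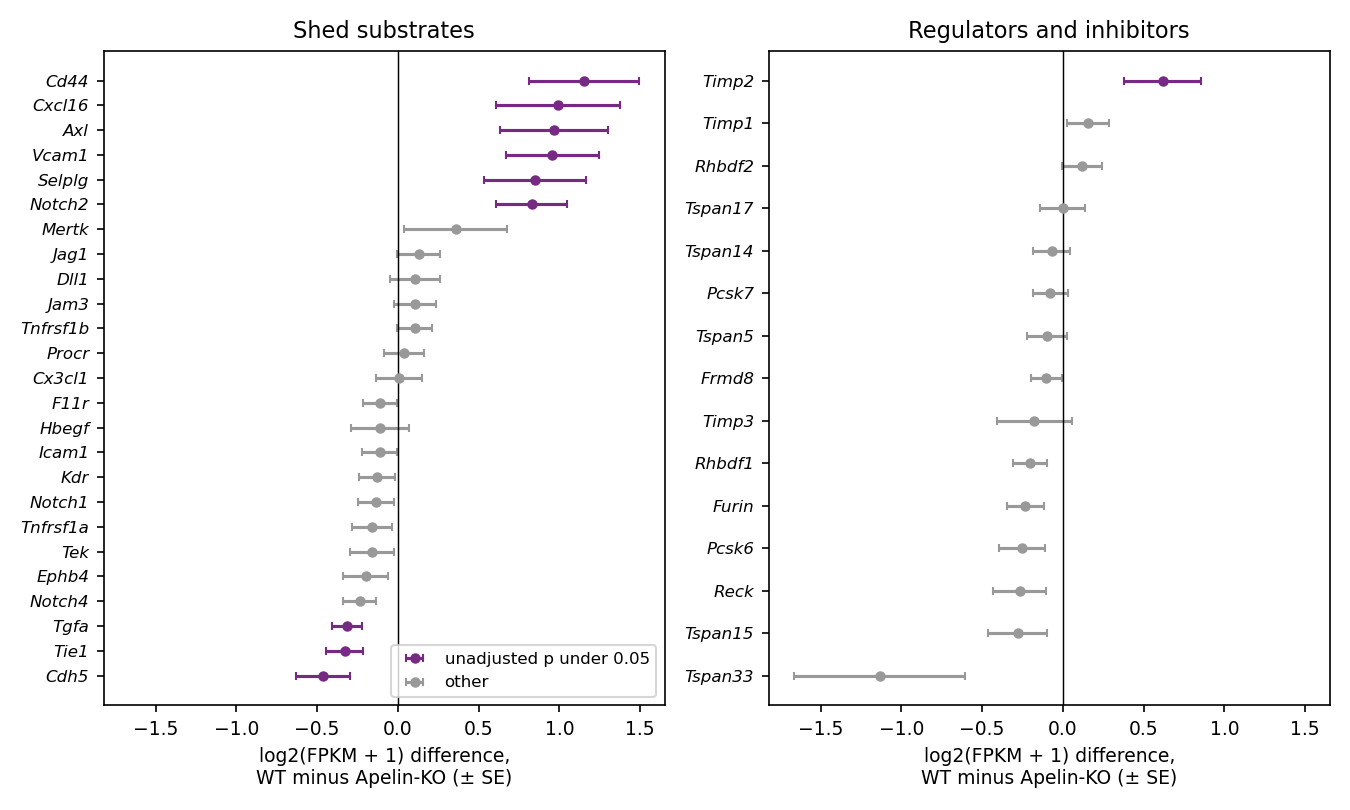
Differences of log2(FPKM + 1), WT minus Apelin-KO, with standard errors from limma (3 samples per group), for 25 genes of shed proteins (left) and 15 genes of ADAM regulators and inhibitors (right), with purple marking an unadjusted p-value under 0.05. Cd44 is at the top on the left with 1.15, and Timp2 at the top on the right with 0.62.

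Genes of matrix and secreted proteins cleaved by this family ranged widely in level in the sorted ECs. Versican (Vcan), aggrecan (Acan), brevican (Bcan), neurocan (Ncan) and Fbn2 did not reach a mean of 1 FPKM, and Fbln1, Igfbp5 and Fbn1 had means of 1.11, 3.34 and 6.26 FPKM. Of 16 genes listed, 11 were tested, 6 higher and 5 lower in WT, with a median log2 difference of 0.16. This median was -0.06 without WT 1 and 0.50 without WT 3. By limma 0 of the 11 had an adjusted p-value under 0.05 (lowest 0.501), and 3 had an unadjusted p-value under 0.05, where 9.42% of all genes did. Col1a1 and Col3a1 were higher in WT, with log2 differences of 0.73 and 0.87, and are also fibroblast markers. Nid1, a basement membrane protein cleaved by ADAMTS1, was lower in WT at 411 ± 39.9 FPKM against 492 ± 9.57 FPKM in Apelin-KO ECs (SD, n = 3 each). The count of 3 was 0 without WT 1, 0 without WT 2, 7 without WT 3 and 1 without Apelin-KO 2. Igfbp3, which ADAM12 can cleave, had the highest level at 4875 ± 470 FPKM in WT and 5196 ± 871 FPKM in Apelin-KO ECs, and Nid2 was next at 451 ± 49.3 and 476 ± 6.05 FPKM.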

How the data were processed

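Tumor ECs (CD31-positive, CD45-negative) of 3 WT and 3 Apelin-KO samples were measured by RNA-sequencing. Stranded mRNA libraries were read from 1 end and aligned to mm10 by the authors, who deposited FPKM with 3 decimals per gene symbol. The submitters' processing notes name bcl2fastq 2.17.1.14, TopHat2 2.1.1, Bowtie2 2.2.4, SAMtools 1.0 and Cufflinks 2.2.1, and the study's methods name other versions of the mapping tools. The annotation and the strand setting are not given in the sources used here. The deposited FPKM summed to between 489396 and 529018 per sample.

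The 10964 of 24346 genes whose mean reached 1 FPKM were compared on log2(FPKM + 1) with limma 3.58.1 in R 4.3.3, by a two-sided moderated test with Benjamini-Hochberg adjustment, and the fit was tested on simulated data. A log2 difference is WT minus Apelin-KO. Depth was estimated from 3742 genes with 1 annotated transcript above 700 bases, assuming 200-base fragments. Of the low values, 69.2% to 72.3% then came within 0.1 of a whole number of reads (20% by chance), so no count test was run. Reads per gene use the longest transcript.

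The members, lists and tests were chosen with earlier results of these data known. Genes named are the 10 members, Apln, listed genes with an unadjusted p-value under 0.05 or among the 3 highest of their list, defining markers, and the 5 genes most like Adam8 and Adamts1. S100a8, S100a9, Cd3e, Cd79a, Adamts12, Rhbdf1, Rhbdf2, Furin, Pcsk6, Tek, Fap, Vcan, Acan, Bcan, Ncan, Fbn1, Fbn2, Fbln1 and Igfbp5 fall outside this rule and were named after their values were seen. The rule was not used in full for the marker lists. Positions come from GENCODE vM21 (GRCm38, the same assembly as mm10) and promoters from RefSeq. Alternatives changed the pseudocount, the filter, the trend, the scaling, the block or the samples. Same-numbered WT and Apelin-KO samples are not stated to be paired. Tables and plots were made in Python 3.11.15 (pandas 2.3.3, matplotlib 3.10.9).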

Additional observations from a re-analysis of the deposited data

How the results depend on the processing

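The log2 difference of Adam8 was between 1.07 (without WT 1) and 2.27 (pseudocount of 0.1) in the 11 alternatives that held this gene. Because its WT and Apelin-KO samples did not overlap, leaving out a sample or changing the pseudocount could not turn its sign. Nothing is read from its direction. A filter at a mean of 5 FPKM removed Adam8. The other 9 genes stayed between -0.28 and 0.25 in every alternative. For 5 genes (Adam9, Adam12, Adam17, Adamts1 and Adamts9) at least 1 alternative had the other sign. Depth limits Adam8 most, with an estimated 9.44 reads in Apelin-KO 1.

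Over all genes, 1 had an adjusted p-value under 0.05 (limma). It was 2 without a filter, 2 with a filter at 5 FPKM and 2 with an intensity trend, and 0 to 3 when single samples were left out. The count of 1033 genes at an unadjusted p-value under 0.05 was 536 (without WT 2) to 1228 (without WT 3), and 675 without WT 1. In the 6 lists, 0 genes had an adjusted p-value under 0.05 in every alternative.

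Counts at an unadjusted p-value under 0.05 moved as follows. Without a filter, other ADAM genes gave 1 in place of 0, other ADAMTS genes 2 in place of 1 and ADAMTS-like genes 0 in place of 1. With a filter at 5 FPKM, other ADAMTS and ADAMTS-like genes gave 0 and 0. With a pseudocount of 0.1, ADAMTS-like genes gave 0 and matrix proteins 1 in place of 3. Leaving out single samples gave counts of 0 to 1 for other ADAMTS genes, 0 to 1 for ADAMTS-like genes and 0 to 1 for regulators. It gave 4 to 10 for shed proteins (9 with all samples) and 0 to 7 for matrix proteins. The 1 regulator counted without WT 1, Apelin-KO 1 or Apelin-KO 2 was lower in WT, unlike the 1 counted with all samples. The same held for the 1 other ADAMTS gene counted without WT 1. Hematopoietic markers gave 2 with a pseudocount of 0.1 and 3 without a filter in place of 6, fibroblast markers 2 in place of 4 with a pseudocount of 0.1, and endothelial markers 6 in place of 4 without a filter, with a filter at 5 FPKM and with an intensity trend. Pericyte markers gave 3 without a filter and 1 with a filter at 5 FPKM in place of 2, and 2 to 4 when single samples were left out (4 without WT 3, 3 without WT 2 and 3 without Apelin-KO 3). The causes were not tested.

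The replicate number as a block gave 1 gene with an adjusted p-value under 0.05, 893 genes with an unadjusted one, and 0 ADAMTS-like genes and 0 regulators in place of 1 each, 2 fibroblast markers in place of 4 and 9 hematopoietic markers in place of 6. The deviations of same-numbered samples correlated at -0.14, 0.21 and -0.02 over genes for replicates 1, 2 and 3, and not every sample correlated best with its own number, so that the samples share a number and no pairing was used.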
